A study of Mus musculus with 6 samples.

Results

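The comparison described here is that of SP600125 against its solvent after 24 h of TGF-β in A20 cells, a B lymphoma line of the BALB/c mouse. It rests on 2 of the 6 arrays of the study, the ones titled for 24 h of TGF-β with SP600125 and with DMSO, and each condition had 1 array. The other 4 arrays are 2 further drug pairs: unstimulated cells with DMSO or with SP600125 for 24 h, and cells with TGF-β for 12 h with DMSO or with SP600125. In the 24 h pair one culture had received TGF-β for 24 h with DMSO and the other TGF-β together with SP600125 for 24 h, and both pairs with TGF-β had the drug for as long as the cytokine. The labels used here give no dose. All 6 cultures were the same cell line in the same medium, so the results describe 1 transformed B cell clone and not primary B cells. The study asked which genes that TGF-β raises need JNK, the kinase that SP600125 is used to block. With 1 array a side, a difference of the 24 h pair is a difference between those arrays and has no test. The 3 drug pairs share no array, so the values of the other pairs are separate measurements of the drug under other conditions.

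SP600125 is an anthrapyrazolone that competes with ATP for the active site of the c-Jun N-terminal kinases and also acts on other kinases. JNK phosphorylates c-Jun and related proteins of the AP-1 family, which bind DNA as dimers and control early response genes. TGF-β binds a receptor kinase pair that phosphorylates Smad proteins, and it also engages JNK and other MAP kinases. In B cells TGF-β restrains growth and promotes class switching to IgA. ATF4 is a transcription factor made when eIF2α is phosphorylated under amino acid shortage, a stressed endoplasmic reticulum or other stress. It drives genes for amino acid synthesis, transport and tRNA charging. The SREBP factors do the like for cholesterol and fatty acid synthesis, and are released from the endoplasmic reticulum when sterols are scarce.

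The array of cells with TGF-β and SP600125 for 24 h differed from the other 5 in several control values. Its 18S rRNA control probe sets read 5878 (3′), 3289 (middle) and 3706 (5′), against 506.5 to 881.5, 270.9 to 659.3 and 311.1 to 495.3 on the other arrays. Its 3′ to 5′ signal ratios were 1.89 for actin (1.25 to 1.51 elsewhere), 0.976 for Gapdh (0.777 to 0.876) and 7.35 for the transferrin receptor (3.93 to 6.24). The ratio for pyruvate carboxylase, 2.02, lay inside the range of the others, 1.29 to 2.54. It also had the most genes above the floor, 11312 against 10455 to 10872, and the highest median signal, 80.9 against 69.3 to 76.1. The spiked control BioB read 1333 there and 924.9 to 1308 on the others, and BioC, BioDn and CreX lay inside the range of the others. The part of the 18S signal and of the 3′ to 5′ ratios in the gene differences below was not tested, and no array without that state exists for 24 h of drug and TGF-β.

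**Figure D1:**
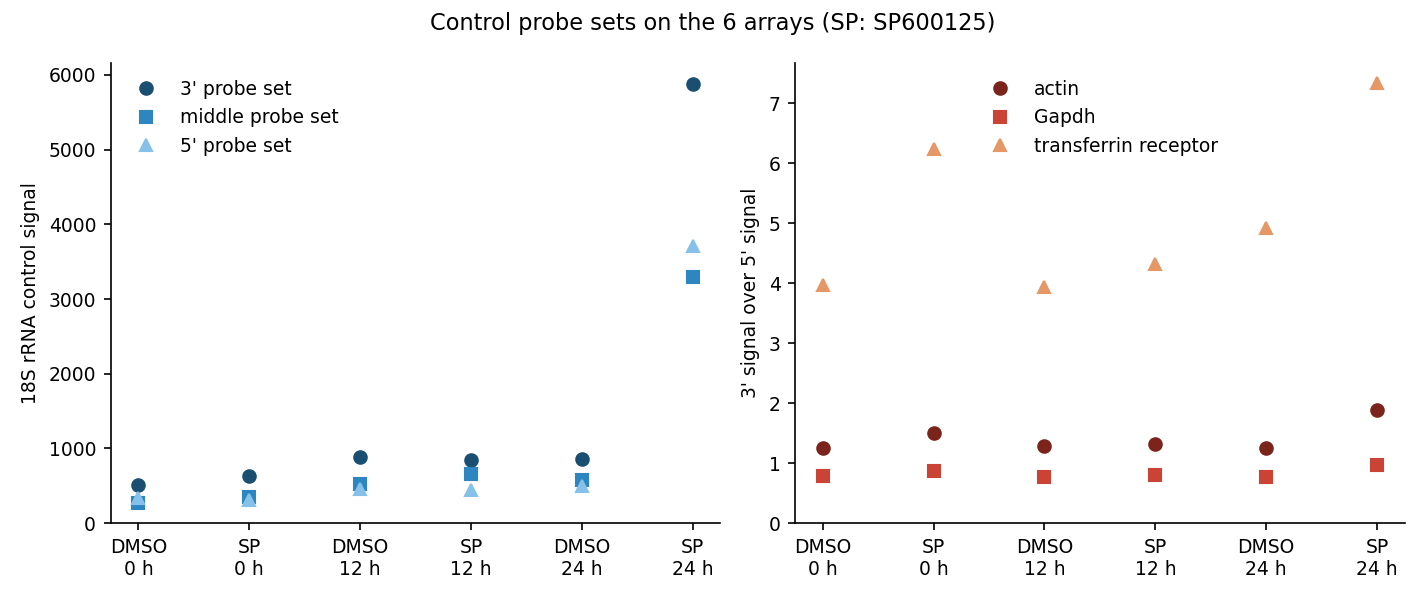
Control probe sets on the 6 arrays, with 18S rRNA signals (left, linear axis) and 3′ to 5′ signal ratios of actin, Gapdh and the transferrin receptor (right); each point is 1 array. The 18S signals of the 24 h drug array, 3289 to 5878, lie above every other array, and its 3 ratios are the highest of their kind.

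Gene values are the signals of the brightest probe set of each gene, with signals under 74.2, the median of all signals, set to that floor before log2. A gene counts as higher or lower at 24 h when the 2 arrays differ at least 2-fold, and where smaller differences are meant the text speaks of a higher or lower signal or gives the log2 value. Of 11977 genes above the floor on at least 1 array of the pair, 382 were higher with SP600125 (3.19%) and 233 were lower (1.95%). Of the higher genes 109 started from the floor with DMSO, and 46 of the lower genes ended at it, so that their folds are lower bounds. The median log2 difference of all 11977 genes was 0.06 with an SD of 0.49, and with the genes ranked by signal into 5 equal classes the class medians went from 0.08 (dimmest) to -0.01 (brightest). Scaling the arrays to 1 median moved that median to -0.07 and gave 244 higher and 327 lower genes, so the share of higher genes among those past 2-fold was 42.7% in place of 62.1%. It was 57.8% with quantile normalization, 53.3% with a loess curve fitted within the pair and 54.0% with the median of all probe sets of a gene. The split between higher and lower genes therefore followed the scaling.

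The drug pairs without TGF-β (0 h) and at 12 h of TGF-β showed smaller or similar numbers. At 0 h, 371 genes were 2-fold higher (3.26%) and 153 lower (1.34%), and at 12 h 213 were higher (1.83%) and 136 lower (1.17%). The 24 h list shared 114 higher genes with the 0 h list, which is 29.8% of the former and 30.7% of the latter. It shared 78 with the 12 h list, 20.4% and 36.6% of each. The lower lists shared 52 genes with 0 h (22.3% and 34.0%) and 39 with 12 h (16.7% and 28.7%). In all 3 pairs 53 genes were 2-fold higher and 18 lower. Of the 382 higher genes 226 (59.2%) had a difference of the same sign in both other pairs, as had 155 of the 233 lower genes (66.5%). The genes higher at 24 h had a median log2 difference of 1.20 there, and of 0.50 at 0 h and 0.50 at 12 h. Those lower at 24 h had medians of -1.17, -0.56 and -0.52 in the same order. Across the 9112 genes above the floor on all 6 arrays, the 24 h differences had a Pearson r of 0.529 with those at 0 h and 0.529 with those at 12 h, where genes are not independent replicates (Spearman 0.466 and 0.478). The 0 h and 12 h differences had an r of 0.523.

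**Figure D2:**
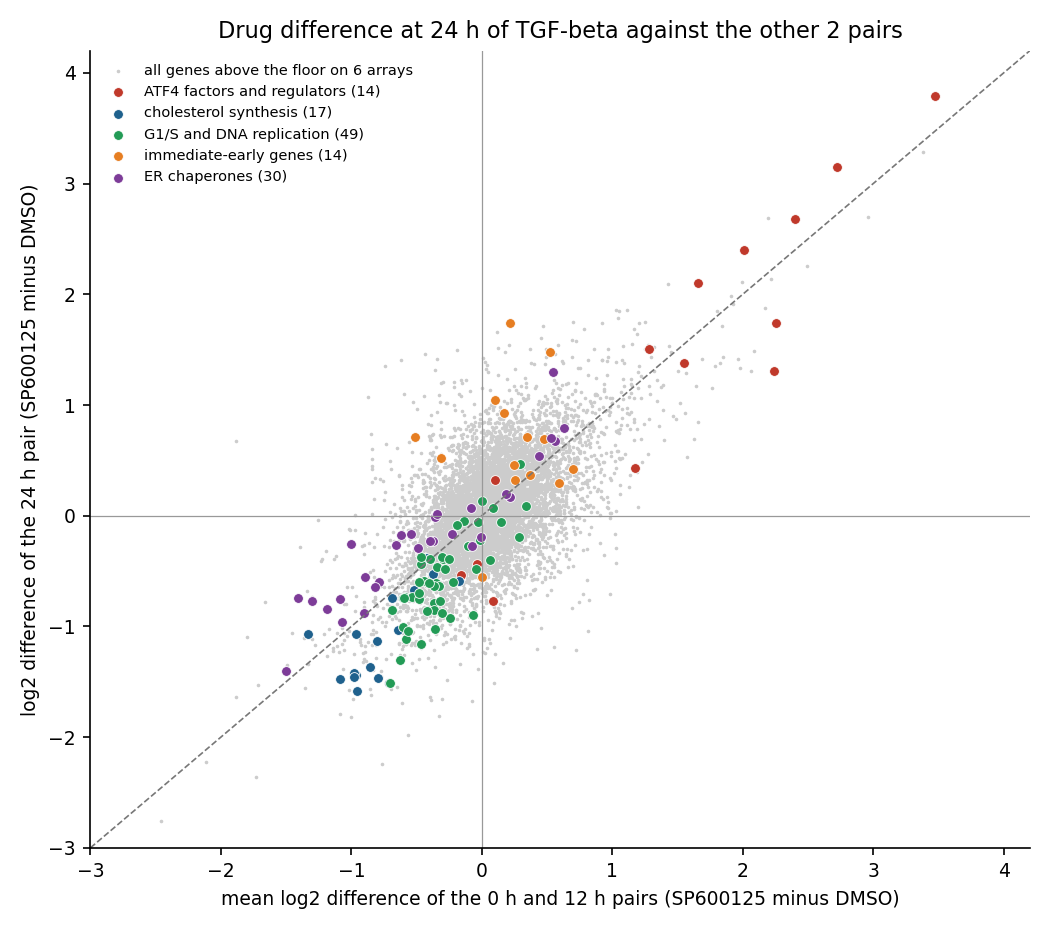
The log2 drug difference of the 24 h pair (y axis) against the mean log2 difference of the 0 h and 12 h pairs (x axis), for 9112 genes above the floor on all 6 arrays, with 5 gene lists in colour and the line of equal values dashed. ATF4 factors lie at the upper right near the line, cholesterol enzymes and replication genes mostly lie below it, and several immediate-early genes lie above it near 0 on the x axis.

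The 4 arrays outside the 24 h pair allow a test of the drug that does not use it. A limma fit of drug effect plus time over these arrays, with Benjamini-Hochberg adjustment at 0.05, called 944 of 10964 genes, 514 that rose (4.69%) and 430 that fell (3.92%). These calls depend on how limma pools the spread between genes, since 1 residual degree of freedom remains. The fit called 0 genes without an intensity trend in the pooled spread, with 1809 at an unadjusted p under 0.05. It called 43 with probe sets of a gene averaged and 446 after quantile normalization. It also called 0, with 1883 unadjusted, when genes above the floor on at least 2 of all 6 arrays were tested, which adds genes that sit at the floor on the 4 fitted arrays and have no spread there (this choice was made after the data were seen). "Rose" and "fell" below refer to the 944 calls and "higher" and "lower" to the 24 h pair. Of the 382 genes higher at 24 h, 340 were tested in that fit, and 120 of them rose and 1 fell. Of the 233 lower genes 229 were tested, and 98 fell and 1 rose. A second fit compared the 24 h difference with the mean of the other 2. It called 0 of 11730 genes (0%), with 614 at an unadjusted p under 0.05, 302 of them higher at 24 h and 312 lower. Among the 9112 genes above the floor on all arrays it called 10 (0.11%), 4 higher and 6 lower at 24 h. Below, the unadjusted p of this second limma fit is given as "the p of the departure", and none of the genes so described passed the adjustment over 11730 genes, where the lowest adjusted p was 0.782.

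The stress factors under ATF4 held several of the 15 largest increases of the 24 h pair. Of 16 measured members of the 20 listed, 10 were higher with SP600125 and 0 lower, with a median log2 difference of 1.43 against 0.06 over all genes, and medians of 1.57 at 0 h and 1.35 at 12 h. In the fit of the other 4 arrays, 10 of 15 tested rose and 0 fell. Trib3, a pseudokinase that binds ATF4 and damps it, had signals of 234.0 and 3593 without TGF-β (DMSO and then SP600125), 295.0 and 2380 at 12 h, and 346.8 and 4802 at 24 h. Every drug array lay above every DMSO array, a separation whose share over all genes was not counted, and the 24 h fold was 13.8. Cebpb, a bZIP partner of ATF4, read 606.9 and 3805, 328.6 and 2290, and 441.1 and 3928 in the same order, with an 8.90-fold difference at 24 h. Atf5, a related factor whose translation is controlled like that of Atf4, read 429.4 and 2471, 312.0 and 1508, and 435.0 and 2792, or 6.42-fold at 24 h. The mRNA of Atf4 itself read 6173 and 18321, 5245 and 15179, and 6004 and 15616, which is 2.60-fold. The drug estimates of the other 4 arrays were 3.48 ± 0.20 (SE) log2 for Trib3 and 1.55 ± 0.10 for Atf4, with adjusted p of 2.9e-08 and 5.0e-08 by limma with Benjamini-Hochberg.

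The same pattern held for factors and regulators further down the pathway. Ddit3, which encodes the factor CHOP, read 363.2 and 1709, 499.1 and 1724, and 645.5 and 3415, a 5.29-fold difference at 24 h in which its second probe set differed by 0.11 log2. Ppp1r15a, which encodes the eIF2α phosphatase subunit GADD34 that ends the response, read 373.0 and 1458, 367.8 and 936.9, and 597.2 and 2559, a 4.29-fold difference. Sesn2, a stress-induced inhibitor of mTORC1, read 74.9 and 660.5, 215.7 and 559.2, and 214.0 and 713.4, with a 3.33-fold difference at 24 h. In these 3 genes the drug arrays did not overlap with the DMSO arrays, and the share of all genes without overlap was not counted. Chac1, which degrades glutathione and was named after its values were seen, was higher by 2.44 log2 at 0 h, 2.04 at 12 h and 1.30 at 24 h, with a p of the departure of 0.021. Its DMSO signal was 696.4, 775.5 and 1311 over the 3 pairs while its drug signal was 3779, 3198 and 3236. Cebpg, another ATF4 partner, was 2.84-fold higher at 24 h and rose in the other pairs. Atf3, a repressor of the same family, stood at the floor with DMSO on all 3 arrays and at 208.4 with drug at 24 h, at least 2.81-fold higher. Among members without a 2-fold difference were the eIF2α kinases Eif2ak1 (-0.53 log2), Eif2ak2 (-0.77) and Eif2ak3 (0.32). Ddit4, an mTORC1 inhibitor, was higher by 0.43 at 24 h after 1.54 at 0 h.

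**Figure D3:**
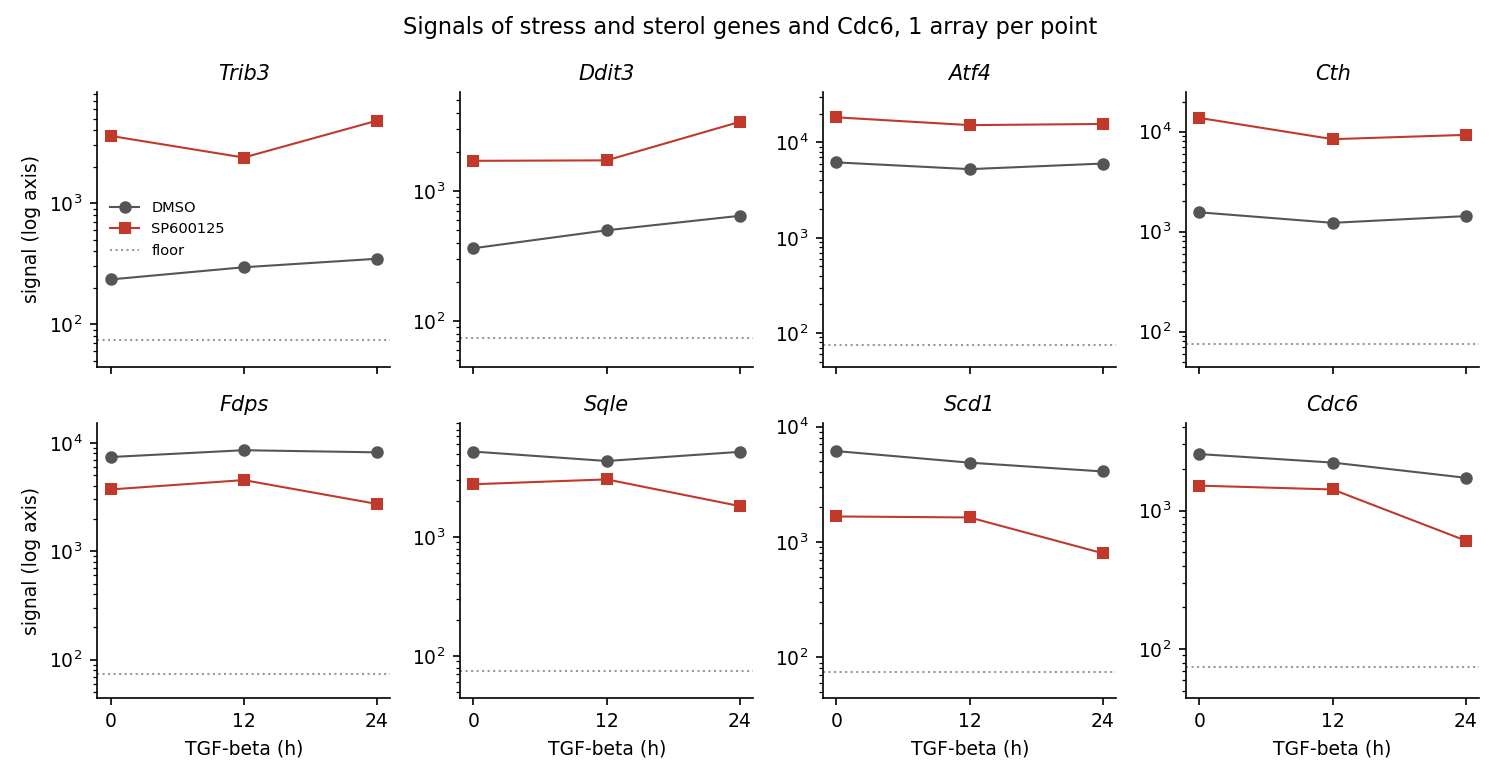
Signals of 8 genes on the 6 arrays (log y axis) against hours of TGF-β, with DMSO in grey circles, SP600125 in red squares and the floor of 74.2 dotted; each point is 1 array. Trib3, Ddit3, Atf4 and Cth lie higher with the drug and Fdps, Sqle, Scd1 and Cdc6 lower in all 3 pairs.

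Among the amino acid genes that ATF4 is known to drive, a minority passed 2-fold at 24 h, each of these upward. Of 17 measured enzymes of serine, glycine, one-carbon, asparagine, proline and cysteine synthesis, 5 were 2-fold higher and 0 lower, with a median of 0.44 log2 (0.39 at 0 h and 0.84 at 12 h), and 10 of 16 tested rose and 2 fell in the other pairs. Cth, which makes cysteine from cystathionine, read 1558 and 13703, 1223 and 8401, and 1428 and 9277, a 6.50-fold difference at 24 h. Its estimate in the other pairs, 2.96 ± 0.12 log2 (SE), had an adjusted p of 2.0e-10 by limma with Benjamini-Hochberg. Gpt2, a mitochondrial alanine aminotransferase, read 271.6 and 1516, 280.3 and 1081, and 307.5 and 1354, or 4.40-fold at 24 h. Asns, asparagine synthetase, read 9116 and 20434, 8610 and 19279, and 8780 and 18313, or 2.09-fold. The mitochondrial one-carbon enzymes Mthfd2 (2.35-fold) and Shmt2 (2.10-fold) completed the 5. Their cytosolic counterparts went the other way: the 24 h differences were -0.97 log2 for Mthfd1 and -0.82 for Shmt1, and both fell in the other pairs. Phgdh, the first enzyme of serine synthesis, was higher by 0.20 and Psph, the last, by 0.81.

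Of 18 measured amino acid transporters 2 were 2-fold higher and 0 lower, with a median of 0.46, and 8 of 17 tested rose. Slc1a4, which carries serine and alanine, read 393.8 and 1493, 328.8 and 1229, and 455.5 and 1804, a 3.96-fold difference. The glycine carrier Slc6a9 read 434.5 and 1576, 358.5 and 1268, and 526.8 and 1729, a 3.28-fold difference. Slc7a5 and Slc3a2, which together carry leucine and other large neutral amino acids, were higher by 0.98 and 0.81 log2. The 20 measured tRNA synthetases, listed as cytosolic but with the mitochondrial Fars2 (-0.93) among them, held 0 members past 2-fold in either direction. A higher signal was seen in 15 and a lower one in 5, with a median of 0.50 (0.55 at 0 h, 0.31 at 12 h). In the other pairs 10 rose and 1 fell. Sars (0.98), Iars (0.94), Aars (0.82) and Gars (0.81) were among the higher ones, while Rars (-0.05), Kars (-0.03) and Farsb (0.04) differed little. The medians of the 4 ATF4-related groups stayed above 0 under all 7 alternative treatments of the pair, the lowest being 0.31 for the synthesis enzymes after median scaling.

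Promoter sequence was set beside these values because ATF4 binds a composite element of parts of a C/EBP and an ATF site. The letters TGATGNAA, a core of that element chosen with these results known, were searched on both strands in windows of 300 bases (250 before to 50 after the start) of RefSeq on GRCm38.p6. The motif was present in 1304 of 32851 windows (3.97%) and in 275 of 12395 windows of genes above the floor in the 24 h pair (2.22%). Of the 71 measured members of these 4 lists 57 had a window, and 14 of their 69 windows held it (20.3%), in 13 genes. The lists were made of genes already linked to ATF4, so this share is not independent of the choice of members and is no separate evidence. Among genes higher at 24 h the motif was present in 20 of 406 windows (4.93%), and among lower genes in 3 of 218 windows (1.38%). A match is only a match of letters, and no match says nothing about binding outside the window. The 5 windows shown belong to members that were 2-fold higher at 24 h and are printed 5′ to 3′ on the strand of the gene, with the matched letters in capitals. Trib3 lies at chr2:152344011-152344310 (minus strand), Asns at chr6:7693160-7693459 (minus), Chac1 at chr2:119350992-119351291 (plus), Slc1a4 at chr11:20332664-20332963 (minus) and Atf3 at chr1:191183284-191183583 (minus). In Asns the match reads forward, and in the others the capitals are its reverse complement.
Trib3: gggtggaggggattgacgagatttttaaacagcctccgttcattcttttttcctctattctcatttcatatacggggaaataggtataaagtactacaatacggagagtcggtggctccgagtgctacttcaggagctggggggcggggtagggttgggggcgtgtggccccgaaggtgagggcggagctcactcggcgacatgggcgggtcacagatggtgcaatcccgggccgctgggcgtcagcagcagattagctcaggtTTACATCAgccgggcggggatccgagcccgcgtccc
Asns: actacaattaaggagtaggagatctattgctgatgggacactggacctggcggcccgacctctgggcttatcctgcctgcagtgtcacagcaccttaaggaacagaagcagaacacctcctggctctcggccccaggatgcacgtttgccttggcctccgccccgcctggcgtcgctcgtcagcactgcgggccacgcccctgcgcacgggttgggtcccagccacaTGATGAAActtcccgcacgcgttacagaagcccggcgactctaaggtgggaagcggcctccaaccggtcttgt
Chac1: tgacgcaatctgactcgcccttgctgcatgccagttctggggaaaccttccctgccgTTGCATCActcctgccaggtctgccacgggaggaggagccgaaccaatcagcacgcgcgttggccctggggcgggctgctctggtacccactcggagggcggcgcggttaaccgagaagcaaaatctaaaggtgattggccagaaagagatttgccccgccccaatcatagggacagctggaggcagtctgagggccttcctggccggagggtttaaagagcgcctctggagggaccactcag
Slc1a4: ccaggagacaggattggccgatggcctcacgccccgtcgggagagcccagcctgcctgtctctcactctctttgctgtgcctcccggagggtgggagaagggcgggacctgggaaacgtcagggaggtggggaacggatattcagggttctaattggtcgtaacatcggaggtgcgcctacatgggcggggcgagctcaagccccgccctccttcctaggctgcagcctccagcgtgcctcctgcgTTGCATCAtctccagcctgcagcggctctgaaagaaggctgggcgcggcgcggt
Atf3: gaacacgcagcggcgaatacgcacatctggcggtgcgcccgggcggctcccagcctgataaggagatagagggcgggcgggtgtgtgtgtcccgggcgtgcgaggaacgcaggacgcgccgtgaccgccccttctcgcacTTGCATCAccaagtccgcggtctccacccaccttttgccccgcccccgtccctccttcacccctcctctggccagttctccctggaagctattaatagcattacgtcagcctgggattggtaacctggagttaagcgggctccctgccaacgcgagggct

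In these windows the match begins at base 265 of 300 in Trib3, 228 in Asns, 58 in Chac1, 247 in Slc1a4 and 141 in Atf3. The start of transcription follows base 250, so the match of Trib3 lies after it, that of Slc1a4, which runs to base 254, spans it, and the others lie before it. The motif was also present in Aars, Gars, Iars, Tars, Yars, Got1, Slc7a11 and Slc7a7. The last of these, an arginine carrier subunit, was not higher at 24 h (-0.50 log2, with 3956 with DMSO and 2793 with drug).

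Chaperones and folding enzymes of the endoplasmic reticulum, targets of ATF6 and XBP1, did not follow the ATF4 genes. Of 30 measured members 1 was 2-fold higher and 1 lower at 24 h, with a median of -0.23, and the 0 h and 12 h medians were -0.49 and -0.53. In the other pairs 4 of 30 rose and 16 fell. Hspa5, the chaperone BiP, read 24805 and 17083, 27110 and 16636, and 23266 and 20664, which are differences of -0.54, -0.70 and -0.17 log2. Creld2, a stress-induced folding factor, read 3737 and 1348, 3777 and 1479, and 2431 and 1452, with differences of -1.47, -1.35 and -0.74. Dnajb11, a cochaperone of BiP, differed by -1.06, -0.95 and -0.26. The 24 h difference was the smallest of the 3 in each of these genes, with p of the departure of 0.054, 0.016 and 0.011, and their DMSO signals were lowest at 24 h. Hspa5, Creld2 and Dnajb11 were named after their values were seen. Of the 30 members 2 had a p of the departure under 0.05 in the higher direction, as had 302 of all 11730 genes tested. Sdf2l1, another partner of BiP, was the lower member, with 2968 with DMSO and 1122 with drug at 24 h, and it fell in the other pairs. The higher member was Ern1, the sensor kinase IRE1, with 249.6 and 613.2 at 24 h. Xbp1, the factor that IRE1 activates, differed by -0.29.

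All 17 measured enzymes of cholesterol synthesis, of the 20 listed, had a lower signal with SP600125 at 24 h, and 12 of them were 2-fold lower, with a median of -1.13 log2 against -0.94 at 0 h and -0.69 at 12 h. In the other 4 arrays 13 of 17 fell and 0 rose. Fdps, farnesyl diphosphate synthase, read 7387 and 3712, 8539 and 4530, and 8161 and 2729, a 2.99-fold difference at 24 h. Sqle, squalene epoxidase, a rate-limiting step, read 5220 and 2774, 4350 and 3048, and 5194 and 1817, or 2.86-fold. Hmgcs1, an early enzyme of the mevalonate pathway, read 13039 and 5805, 15179 and 8974, and 14088 and 6718, or 2.10-fold. Drug and DMSO signals did not overlap over the 3 pairs in any of these genes, and the share of all genes without overlap was not counted. Hsd17b7 (2.78-fold), Idi1 (2.77), Nsdhl (2.74) and Cyp51 (2.71), which act between mevalonate and cholesterol, differed by similar factors. The smallest differences were those of Pmvk (-0.38), Ebp (-0.53) and Mvk (-0.59). For 6 of the 17 the p of the departure was under 0.05, each in the lower direction, among them Fdps (0.012), Sqle (0.028), Cyp51 (0.032) and Nsdhl (0.035). Over all 11730 genes tested, 312 had such a p in the lower direction. The 6 genes share the same 24 h arrays and are not independent replicates. In the other pairs Fdps had an estimate of -0.95 ± 0.10 log2 (SE) and an adjusted p of 2.0e-05 by limma with Benjamini-Hochberg.

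The genes that control sterols differed less evenly. Of 14 measured members of that list 3 were lower and 1 higher, with a median of -0.14. Srebf1, which encodes the factor for fatty acid genes, read 1157 and 895.1, 1667 and 1051, and 1551 and 700.8, a 2.21-fold lower signal at 24 h. Srebf2, which encodes the factor for cholesterol genes, differed by -0.55 with 1902 and 1297. Stard4, a sterol carrier, was 2.19-fold lower. Abcg1, a sterol exporter under the liver X receptors, read 248.1 and 265.4, 781.2 and 419.7, and 1042 and 334.3, and was 3.12-fold lower at 24 h without a lower signal at 0 h. With the mean of its probe sets the 24 h difference of Abcg1 was -0.98 log2. Abca1, the other exporter of that kind, read 10156 on both arrays of the pair with its brightest probe set, but another of its 3 probe sets differed by -2.31. With the mean and the median of its probe sets Abca1 was past 2-fold lower, by -1.23 and -1.39 log2, so its lack of difference held for the brightest probe set only. The member that was higher, Nr1h3, encodes a liver X receptor itself and read 76.6 and 154.8. Insig1, which retains SREBP in the endoplasmic reticulum, differed by -0.95 and -0.89 in the other pairs and by -0.27 at 24 h.

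Of 16 measured genes of fatty acid synthesis 13 had a lower signal, 3 of them 2-fold, with a median of -0.57 (-0.42 and -0.42 in the other pairs), and 6 of 15 tested fell and 0 rose. Scd1, the desaturase that makes oleate, read 6129 and 1663, 4866 and 1630, and 4081 and 796.7, a 5.12-fold difference at 24 h. Scd2, its isoform, read 12195 and 7905, 16276 and 10238, and 16834 and 5759, a 2.92-fold difference. The fit restricted to genes above the floor on all arrays called the departure of Scd2 at 24 h, -0.90 log2 below the mean of the other pairs, with an adjusted p of 0.035 by limma with Benjamini-Hochberg. Elovl6, which lengthens palmitate, was 2.03-fold lower. Fasn, fatty acid synthase, differed by -0.86 and Elovl5 by 0.17.

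The sterol regulatory element was searched in the same RefSeq windows as TCACNCCAC on both strands. It was present in 408 of 32851 windows (1.24%) and in 146 of 12395 windows of genes above the floor in the 24 h pair (1.18%). Among 17 windows of 14 cholesterol enzymes 1 held it (5.88%). TGATGNAA was also present in 1 of these 17 windows (5.88%), so the share rests on 1 window and is the same for both motifs. It was present in 7 of 218 windows of genes lower at 24 h (3.21%) and in 0 of 406 windows of higher genes. The window of Hmgcs1, the 1 enzyme with a match, lies at chr13:119690101-119690400 (plus strand), and the capitals mark the match from base 114.
Hmgcs1: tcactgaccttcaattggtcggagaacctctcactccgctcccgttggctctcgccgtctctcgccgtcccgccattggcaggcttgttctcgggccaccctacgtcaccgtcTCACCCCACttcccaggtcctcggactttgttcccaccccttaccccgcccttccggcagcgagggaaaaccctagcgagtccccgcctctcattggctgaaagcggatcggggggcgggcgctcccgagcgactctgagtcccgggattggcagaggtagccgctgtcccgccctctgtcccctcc

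The JNK pathway and its targets were of interest because the drug is aimed at them. Mapk8, which encodes JNK1, read 938.1 and 891.8, 949.0 and 829.0, and 940.4 and 938.3. Mapk9, which encodes JNK2, read 1042 and 993.5, 1431 and 1078, and 1372 and 831.8, a difference of -0.72 at 24 h. Mapk10, which encodes the neural JNK3, stood at the floor on all 6 arrays. Of 16 measured members of the cascade 4 were 2-fold higher and 0 lower, and 0 of 15 rose and 1 fell in the other pairs. With median scaling of the arrays 1 member, Gadd45b, was 2-fold higher and 0 lower at 24 h. The 4 were Gadd45b (990.7 and 2269 at 24 h, 525.1 and 529.5 at 0 h) and Gadd45a (223.2 and 474.0), which bind the upstream kinase MEKK4, and the kinases Map3k12 (992.1 and 2035) and Map3k2 (149.3 and 302.4). Map3k12 turned to -0.05 with the median of its probe sets.

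Of 14 measured AP-1 genes 4 were higher and 0 lower. With median scaling 2 were higher and 1 lower, and Jun and Fos were under 2-fold. Jun, whose promoter is a known target of c-Jun itself, read 95.9 and 71.7, 92.4 and 191.6, and 113.0 and 244.9. It was thus not lower with the JNK inhibitor at 12 h or 24 h, and its 24 h difference was 2.17-fold upward. Fos, its dimer partner, read 258.8 and 125.0, 293.3 and 266.1, and 299.6 and 643.4, or -1.05 log2 at 0 h and 1.10 at 24 h, with a p of the departure of 0.041. Jdp2, a repressor of AP-1, read 116.2 and 653.2, 124.3 and 697.7, and 167.4 and 798.1, was 4.77-fold higher at 24 h and rose in the other pairs, although its second probe set differed by -0.09. Maff, a small Maf factor, was at the floor on the other 5 arrays and at 210.0 with drug at 24 h, at least 2.83-fold higher. Junb read 1710 and 1706 at 24 h, and Jund 10543 and 11945 (0.18 log2).

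Immediate-early genes, which respond to growth signals within minutes and hold many AP-1, SRF and CREB targets, had a median of 0.42 at 24 h against 0.17 and 0.27 in the other pairs. Of 19 measured members 3 were 2-fold higher and 1 lower, and 3 of 18 rose in the other pairs. With median scaling 2 were higher and 1 lower, and Egr1 was under 2-fold. Egr1, a zinc finger factor of the serum response, read 2101 and 1888, 2893 and 3722, and 5094 and 10513, so that the 24 h drug array was the highest and both groups were higher with time. Its 24 h difference was 1.05 log2 and its p of the departure 0.031. Nr4a1, an orphan receptor induced by antigen receptor signals, read 125.5 and 125.2, 202.5 and 274.7, and 169.2 and 565.8, a 3.34-fold difference at 24 h with a p of the departure of 0.025. Klf4, a factor that restrains B cell division, read 88.5 and 150.5, 147.4 and 179.2, and 111.5 and 311.5, or 2.79-fold. Nr4a2, a relative of Nr4a1, was the lower member, with 169.4 with DMSO and the floor with drug, at least 2.28-fold. Among the MAP kinase phosphatases Dusp16, which acts on JNK, read 447.8 and 616.5, 438.1 and 715.2, and 727.9 and 2117, or 2.91-fold higher with a p of the departure of 0.027. Dusp5 (2.08-fold) and Dusp4 (2.04-fold) were higher too, and Dusp14 was 3.23-fold lower. With median scaling 1 of these phosphatases, Dusp16, was 2-fold higher and 1 lower. Egr1, Fos, Nr4a1 and Dusp16 had their highest signal of all on the array with the high 18S signal, and the part of that array's state in these values was not tested.

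**Figure D4:**
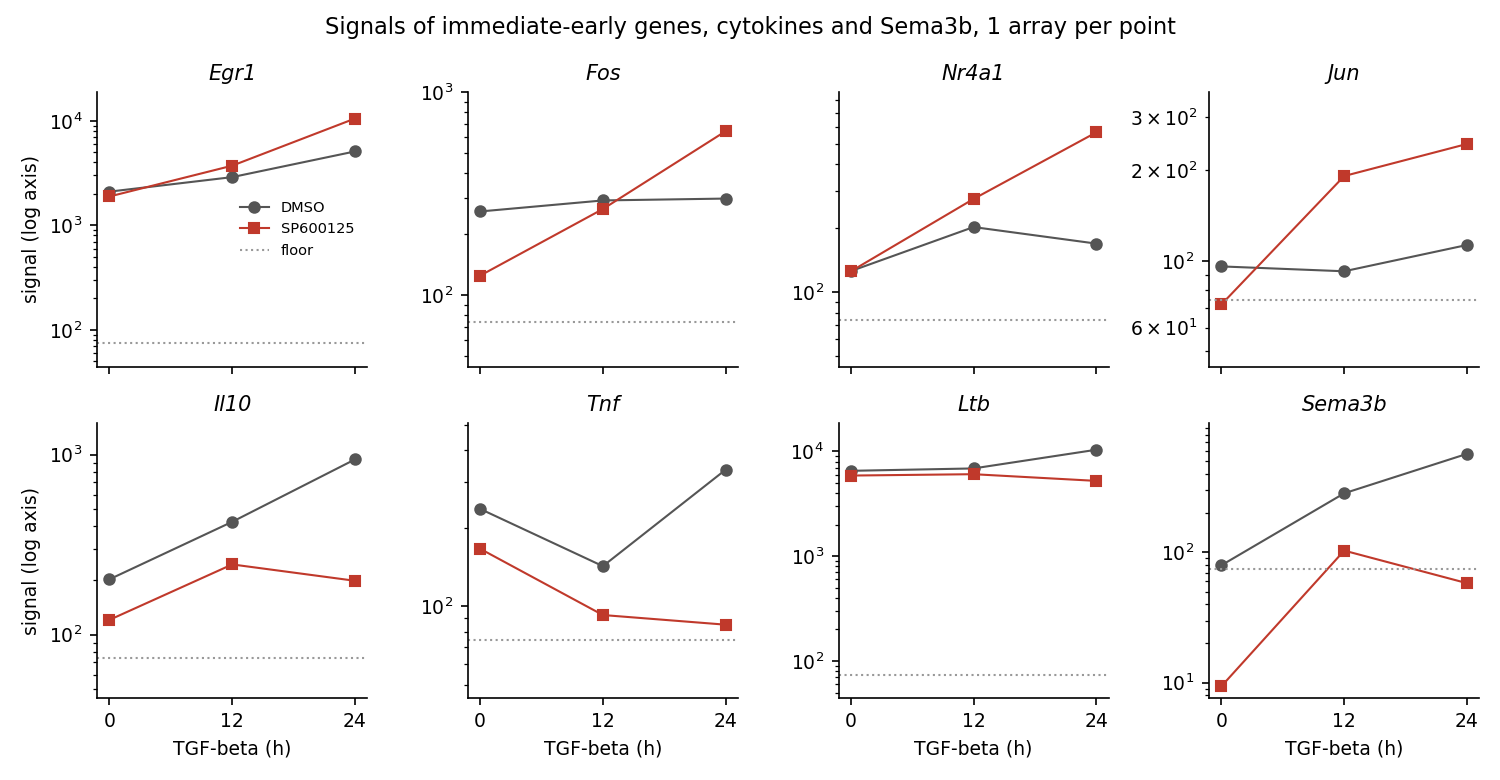
Signals of 8 genes on the 6 arrays (log y axis) against hours of TGF-β, with DMSO in grey circles, SP600125 in red squares and the floor of 74.2 dotted; each point is 1 array, and points under the dotted line were set to the floor in all differences. Egr1, Fos, Nr4a1 and Jun are highest on the 24 h drug array, and Il10, Tnf, Ltb and Sema3b are highest on the 24 h DMSO array.

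Of 50 measured genes of G1/S and DNA replication 45 had a lower signal with SP600125 at 24 h, with 7 of them 2-fold lower and 0 higher. The median was -0.60, against -0.36 at 0 h and -0.31 at 12 h, and 19 of 50 fell and 0 rose in the other pairs. Cdc6, which loads the replicative helicase, read 2557 and 1514, 2221 and 1420, and 1724 and 606.4, a 2.84-fold difference at 24 h. Uhrf1, which maintains DNA methylation behind the fork, read 4314 and 2534, 3784 and 2693, and 2718 and 1101, or 2.47-fold. Rrm2, a subunit of ribonucleotide reductase, read 11332 and 8340, 11097 and 7904, and 8559 and 3823, or 2.24-fold, and Dut, Rrm1 and Prim1 were lower by 2.17, 2.06 and 2.04-fold. Both the DMSO and the drug signals of Cdc6, Uhrf1 and Rrm2 were lowest at 24 h. For 11 of the 50 the p of the departure was under 0.05, each in the lower direction, among them Rrm2 (0.0078), Prim1 (0.0099) and Cdc6 (0.012). Over all 11730 genes tested, 312 had such a p in the lower direction. The 11 genes share the same 24 h arrays and are not independent replicates. Pcna, the sliding clamp, differed by -0.87 and Cdt1, a helicase loader, by -0.05. The median stayed between -0.50 and -0.73 under the 7 alternative treatments of the pair.

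Genes of mitosis followed. Of 47 measured members 43 had a lower and 4 a higher signal, but 1 passed 2-fold in each direction, and the median was -0.37 (-0.19 and -0.23 in the other pairs, where 1 rose and 4 fell). Nuf2, a kinetochore protein, read 1655 and 1249, 2054 and 1535, and 1420 and 580.9, a 2.44-fold lower signal at 24 h. Cdc25b, a phosphatase that activates CDK1, was 2.28-fold higher and rose in the other pairs. Of 10 measured CDK inhibitors and pocket proteins 1 was 2-fold higher and 0 lower, 7 had a lower signal and the median was -0.15, and 2 rose and 1 fell in the other pairs. Cdkn1a, which encodes p21 and was the higher one, read 143.0 and 461.7, 138.3 and 227.6, and 140.3 and 468.5, a 3.34-fold difference at 24 h, and its second probe set differed by 0.69. Cdkn1b, which encodes p27, differed by 0.85 and rose in the other pairs. Cdkn2b, which encodes p15 and is a known TGF-β target, read 1292 and 825.4 at 24 h, a difference of -0.65, and fell in the other pairs. Housekeeping genes also had a median below 0, -0.35 over 11 members, with 0 past 2-fold, or 1 lower with probe sets averaged. Actb read 41951 and 39810 with its brightest probe set, but differed by 0.81 log2 with the mean or the median of its probe sets.

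Targets and regulators of TGF-β itself were divided at 24 h. Of 22 measured target genes 3 were higher and 3 lower, with a median of -0.10. The members of this list were chosen with earlier results of these data known, so its counts do not stand for TGF-β targets in general. Sema3b, a secreted semaphorin, read 79.6 with DMSO and the floor with drug at 0 h, 283.7 and 103.1 at 12 h, and 569.3 and the floor at 24 h. It was at least 7.67-fold lower at 24 h, and with DMSO it was higher at each later time. Ptgir, which encodes the prostacyclin receptor and stood among the 15 lowest of all genes, read 309.3 and 78.3, 1108 and 234.2, and 635.9 and 135.9, so it was 4.68-fold lower at 24 h and fell in the other pairs too. Tmem50b read 655.0 and 939.7, 2697 and 1087, and 3133 and 1442, lower with drug at both times of TGF-β and not without it. Apoc2, an apolipoprotein, went the other way, with 98.4 and 621.5, 750.0 and 2137, and 2295 and 6434, and Tsc22d3 and Bhlhe40, both transcriptional regulators, were higher by 1.16 and 1.01 log2. Smad7, the feedback inhibitor of the receptor, read 123.6 and 121.1, 485.1 and 619.2, and 525.2 and 696.6, and was not lower with the drug. Id2, an inhibitor of basic helix-loop-helix factors, read 481.0 and 259.6, 2678 and 2556, and 3517 and 2052, a difference of -0.78 at 24 h. Of 9 measured Smad inhibitors and corepressors Ski was 2.41-fold higher and Ldlrad4, a receptor pathway inhibitor, 2.35-fold lower with 582.6 and 248.2. Among 16 ligands, receptors and Smads 1 was higher and 0 lower, namely Eng, a coreceptor at the floor with DMSO at 24 h and at 167.2 with drug. The receptor kinase Tgfbr1 differed by -0.65 (8170 and 5222), although another of its probe sets differed by -2.44, and Tgfbr2 by -0.24.

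Of 14 measured genes of MHC class II and its peptide loading 5 were 2-fold lower and 0 higher, and 13 of 14 had a lower signal, with a median of -0.74 (-0.82 at 0 h and -0.28 at 12 h). In the other pairs 7 fell and 0 rose. H2-Ab1, a chain of I-A, read 9348 and 3005, 15235 and 10711, and 22611 and 10132, a 2.23-fold difference at 24 h. H2-DMb2, a chain of the peptide exchanger, read 3755 and 1028, 6446 and 5376, and 9328 and 3579, or 2.61-fold, and Ifi30, the reductase that opens antigens for loading, 7207 and 2945, 14933 and 10374, and 17360 and 6963, or 2.49-fold. In each of these the difference was smallest at 12 h. Cd74, the invariant chain, read 31773 and 29972 at 24 h and H2-Ob differed by 0.20. The 13 measured genes of class I presentation all had a lower signal, but 0 reached 2-fold and the median was -0.38.

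Of 13 measured inhibitory receptors and phosphatases of B cells 12 had a lower signal, 5 of them 2-fold, with a median of -0.80 (-0.65 and -0.41), and 7 of 12 tested fell and 0 rose. Ptpn6, the phosphatase SHP-1, read 7235 and 2568, 8925 and 3964, and 7197 and 2840, a 2.54-fold difference at 24 h, while its second probe set differed by -0.36. Fcgr2b, the inhibitory Fc receptor, read 3252 and 1740, 5511 and 2652, and 4938 and 2083, or 2.37-fold. Cd22, a sialic acid receptor that recruits SHP-1, read 1950 and 614.9, 2158 and 1031, and 2043 and 950.4, or 2.15-fold, and Siglecg and Inpp5d were 2.13 and 2.04-fold lower. Of 18 measured members of the B cell receptor complex and its proximal signalling 2 were 2-fold lower, 0 were higher and the median was -0.29. The 2 were the adaptor Pik3ap1 (7397 and 3125) and the complement receptor Cr2 (880.8 and 408.0), and Cd79a, a signalling chain, differed by -0.91. Ms4a1, which encodes CD20, read 14819 and 7565, 12217 and 6915, and 16048 and 7083, or 2.27-fold lower, and Tnfrsf13c, the BAFF receptor, was 2.25-fold lower. Factors of B cell identity differed little, with a median of -0.24 and 1 of 16 past 2-fold, Pou2f2, from 159.9 to the floor.

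Of 12 measured cytokine and chemokine genes 1 was 2-fold higher and 2 lower, with a median of -0.10. Il10, an inhibitory cytokine of B cells, read 202.8 and 120.7, 423.2 and 245.3, and 940.0 and 199.0. With DMSO it was higher at each later time, while with drug the 24 h signal lay below that at 12 h. The 24 h difference was 4.72-fold with a p of the departure of 0.018. Tnf read 237.3 and 166.7, 142.9 and 92.7, and 335.8 and 85.1, a 3.95-fold lower signal at 24 h with the same p of 0.018. Ltb, the membrane partner of lymphotoxin, named after its values were seen, read 6531 and 5885, 6883 and 6064, and 10379 and 5235, a difference of -0.99 log2 that was -0.15 and -0.18 in the other pairs, with a p of the departure of 0.0044. Vegfa, an angiogenic factor that ATF4 is known to raise, read 126.1 and 435.0, 87.7 and 514.4, and 121.1 and 443.6, a 3.66-fold higher signal at 24 h, and it rose in the other pairs. Of 16 measured NF-κB genes Nfkb2, the precursor of p52, was 2.14-fold higher and Traf1 2.02-fold lower. The 19 measured interferon-stimulated genes held 0 past 2-fold.

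Of 18 measured p53 targets 3 were 2-fold higher and 0 lower, with a median of 0.32, and 7 rose and 1 fell in the other pairs. Besides Cdkn1a and Sesn2 these included Trp53inp1, an autophagy and p53 cofactor, with 3402 and 6885 at 24 h after 619.4 and 2959 at 0 h. The BH3-only gene Bbc3, which encodes PUMA, differed by 0.93 and Mdm2 by 0.26. Among 12 measured BCL-2 family genes Bcl2 was 2.20-fold higher (114.9 and 252.5), Bcl2l11, which encodes BIM, differed by 0.85 and rose in the other pairs, and Bad differed by 0.02. With the mean and the median of its probe sets Bcl2 was under 2-fold, at 0.46 and 0.24 log2. Of 19 measured death receptor and caspase genes 0 passed 2-fold, 9 had a higher and 10 a lower signal, and the median was -0.02.

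Of 11 measured noncoding transcripts, hosts of small nucleolar RNAs among them, 4 were 2-fold higher and 0 lower, the median was 0.74 (0.53 and 0.57), and 7 rose and 1 fell in the other pairs. Such hosts are known to be degraded by nonsense-mediated decay when they are translated. Snhg12 read 512.0 and 1152, 342.4 and 648.9, and 524.3 and 1812, a 3.46-fold difference at 24 h. Snhg6 read 2375 and 5646, 1433 and 3639, and 2540 and 6881, or 2.71-fold, and Snhg1 was 2.61-fold and Gas5 2.17-fold higher. The other probe sets of Snhg1 and Gas5 reached down to -0.01 and -0.74, and the median of the list was 0.23 with probe sets averaged. Of the 36 listed histone genes without a poly(A) tail 6 were measured and 3 were higher. H1f2, a linker histone, read 328.0 and 593.7, 505.4 and 1001, and 1356 and 4517, or 3.33-fold at 24 h, and one of its 3 probe sets differed by -0.34. The 18S signal was 5878 on the same array, and its part in these values was not tested.

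Large groups of basic metabolism differed little. Past 2-fold were 0 of 36 measured genes of MYC and ribosome biogenesis (median -0.05), 0 of 27 cytosolic ribosomal protein genes (0.18), 0 of 36 genes of the respiratory chain (-0.03), 0 of 26 proteasome genes (-0.07), 0 of 26 lysosome and autophagy genes (0.12), 0 of 17 heat shock chaperones (0.04) and 0 of 23 genes of NRF2, glutathione and thioredoxin (-0.06). The xenobiotic response of the aryl hydrocarbon receptor had 4 measured genes of 12 listed and 0 past 2-fold, and its defining target Cyp1a1 was at the floor on both arrays of the pair. Of 24 measured genes of glycolysis and hypoxia Vegfa was higher and Aldoc 2.26-fold lower.

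**Figure D5:**
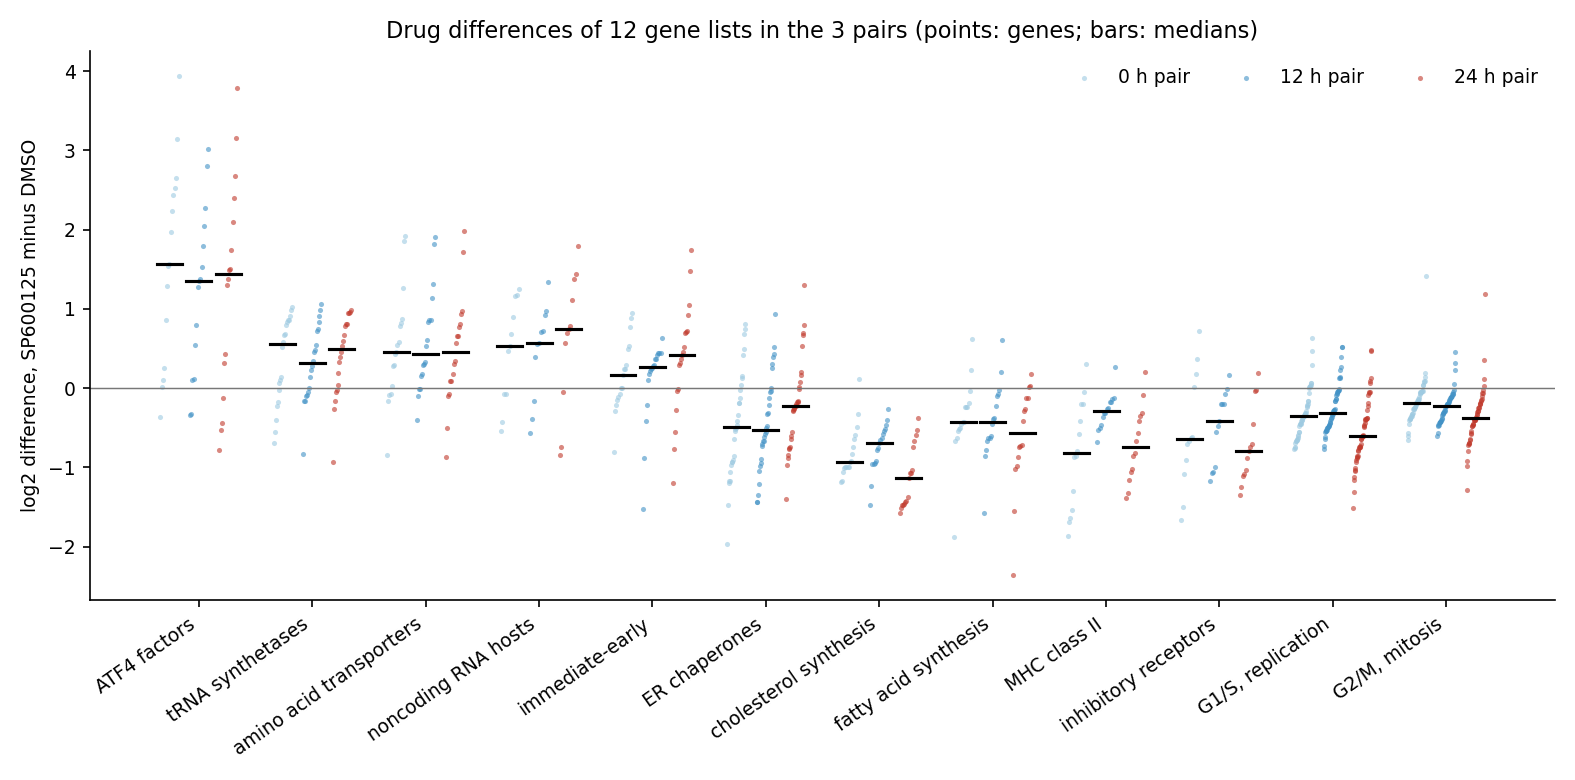
The log2 drug differences of 12 gene lists in the 0 h, 12 h and 24 h pairs, with 1 point per gene and bars at the medians. Medians of the ATF4 factors lie at 1.57, 1.35 and 1.43, those of cholesterol synthesis at -0.94, -0.69 and -1.13, and those of G1/S genes at -0.36, -0.31 and -0.60.

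Some of the largest differences lay outside these groups. Among the 15 highest were Cox6a2, a muscle-type subunit of cytochrome oxidase, with 140.8 and 2902, 181.6 and 954.7, and 195.0 and 1904, or 9.76-fold at 24 h. Angptl6, a secreted angiopoietin-like protein, read 137.6 and 644.7, 131.0 and 587.0, and 114.4 and 737.3, or 6.45-fold. Reep6, a shaper of the endoplasmic reticulum, was 4.79-fold and Arid5b, a DNA-binding regulator, 4.32-fold higher. These 4 rose in the other pairs. With the mean and the median of its probe sets Arid5b was under 2-fold, at 0.80 and 0.91 log2. Among the 15 lowest, BC035044 read 2637 and 306.2, 908.5 and 257.7, and 829.5 and 122.4, or 6.78-fold. Aif1 read 164.3 and the floor, 827.8 and 406.4, and 1551 and 320.4, or 4.84-fold. Cd68, Mpeg1 and Cd180 were 3.52, 3.47 and 3.11-fold lower, with Cd180 named after its values were seen. Aif1, Cd68, Mpeg1 and Cd180 all fell in the other pairs. Of 6 measured myeloid markers Cd68 alone was 2-fold lower and 0 were higher, with a median of -0.15.

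Other genes had a 24 h difference that departed from those of the other pairs. Klk4, a kallikrein protease, read 932.0 and 721.9, 903.1 and 740.5, and 2611 and 746.3, and Med18, a Mediator subunit, 1088 and 1084, 939.0 and 846.8, and 1132 and 354.6. The fit restricted to genes above the floor on all arrays called both as lower at 24 h than in the other pairs, by -1.48 and -1.60 log2, with adjusted p of 0.030 and 0.027 by limma with Benjamini-Hochberg. The same limma fit with Benjamini-Hochberg also called Ctse (-1.27, adjusted p = 0.0025), an endosomal protease with 24195 and 10223 at 24 h, and Nme1 (-1.18, 0.0045), a nucleoside diphosphate kinase with 16807 and 6633. Each has a second probe set that differed by less, -0.23 in Ctse and -0.28 in Nme1. Tecr, an enzyme of fatty acid elongation, was the remaining lower call besides Scd2. The higher calls were Cysrt1, Exosc1, Khsrp and Psmc4. Cysrt1 read 240.3 and 79.0, 359.9 and 80.0, and 348.1 and 557.1, so the drug arrays were low in the other pairs and high at 24 h. Of the other genes with the largest departures at 24 h, Tmc8 (139.0 and 339.8), Il17re (78.2 and 338.3), Gm15706 (122.0 and 324.0) and Fancm (231.6 and 637.7) were higher and Acox3 (629.7 and 305.5) and BC064078 (802.2 and 282.3) lower at 24 h, with signals nearer the floor. Pinlyp, a phospholipase inhibitor, read 359.1 and 422.8 at 24 h, a difference of 0.24 after 2.57 at 0 h and 1.49 at 12 h. Fancm turned to -0.38 with the median of its probe sets. Of the 160 higher genes with other probe sets above the floor 40 had 1 that differed the opposite way, as had 30 of 108 lower genes.

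The label of a B cell line held on both arrays. Of 10 measured B lymphoid markers 10 were above the floor with DMSO and 9 with drug at 24 h, and their summed signals were 110171 and 88800, with Ighm at 17841 and 21516. Markers of other cells were mostly at the floor. Of 13 NK and T cell markers 1 and 4 were above it, with sums of 378.7 and 661.8 against 435.0 to 538.0 on the other arrays. Of 11 fibroblast markers 3 and 4 were above it, with sums of 612.2 and 815.2, and of 7 erythroid and platelet markers 2 and 2, with sums of 456.1 and 652.9. Of 11 myeloid markers 5 and 5 were above it, with sums of 2709 and 1392, of which Cd68 made 1482 and 421.3. The higher sums of the NK, T cell and erythroid lists with drug at 24 h and the high 18S signal were on the same array, and their part in the differences above was not tested.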

How the data were processed

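Total RNA of A20 cells, isolated on columns, was made into biotinylated cRNA and hybridised to Affymetrix Mouse Genome 430 2.0 arrays, per the labels' protocols. The deposited values are linear intensity signals, for which the submitters' processing notes name GCOS 1.2, and their 2% trimmed mean is 500 on each array. Of 45101 probe sets, 34945 carried 1 gene symbol, 932 several and 9211 were not listed in the annotation used, which left 18193 genes. Each gene took its probe set of highest mean signal, floored at 74.2, the 50th percentile of all signals. Drug effects over the 0 h and 12 h pairs, departures of the 24 h pair from them, and an additive fit of all 6 arrays were fitted with limma 3.58.1 (R 4.3.3) with an intensity trend, on log2 signals of genes above the floor on at least 2 fitted arrays, with Benjamini-Hochberg adjustment at 0.05. The script was tested on simulated data. The labels name no separate cultures as replicates. The error of the first 2 fits is the difference between the 0 h and 12 h pairs. These pairs differ in TGF-β and in hours of drug (24 h and 12 h), so the p-values do not measure spread between replicate cultures. The additive fit likewise takes its error from differences between the 3 pairs.

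Genes were named by rule: the 15 largest differences each way with a signal of at least 296.8, members of 50 lists past 2-fold (up to 6 each way) or nearest no difference, 16 fixed genes, and the 5 highest and lowest departures. The members and lists were chosen with earlier results of these data known. Outside the rule, and named after their values were seen, were Chac1, Cebpg, Atf3, Psph, Slc7a5, Slc3a2, Slc7a11, Sars, Aars, Gars, Iars, Tars, Yars, Got1, Hspa5, Creld2, Dnajb11, Hmgcs1, Insig1, Fasn, Pcna, Cdkn2b, Ltb, Bbc3, Mdm2, Cd180, Cyp1a1, Ctse, Nme1, Tecr, Exosc1, Khsrp and Psmc4. Alternatives were median scaling, quantile and loess normalization, another floor (20.3), a pseudocount of 50, and the mean or median of all probe sets.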

Additional observations from a re-analysis of the deposited data

Results flagged for a closer look

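The 18S rRNA control probe sets, which no gene comparison uses, stood out on the array of cells with SP600125 and TGF-β for 24 h. The 3′ probe set read 5878.2 there and at most 881.5 on the other arrays, 6.67-fold higher. The middle probe set read 3288.9 (4.99-fold above the highest other) and the 5′ probe set 3706.5 (7.48-fold). Against the DMSO array of the same time the ratios were 6.87, 5.63 and 7.48. The part of this signal in the gene differences of the pair was not tested.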

How the results depend on the processing

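The 382 higher genes of the 24 h pair became 244 with median scaling, 1759 with the floor at the 25th percentile and 219 when a gene's probe sets were averaged, and the 233 lower genes became 1074 with that floor and 148 with that average. The limma calls over the 0 h and 12 h pairs, 944, became 446 after quantile normalization, 43 with probe sets averaged, 0 without the intensity trend and 0 with genes above the floor on at least 2 of all 6 arrays. The departures of the 24 h pair gave 0 calls, and 10 with genes above the floor on all arrays. The additive fit of all 6 arrays called 901 genes, and 175 with probe sets averaged, 1468 with genes above the floor on all arrays, 92 without the trend and 890 without the 24 h drug array. Of the 819 values of the 117 named genes past 2-fold under 7 alternatives, 728 stayed past it in the same direction, 89 dropped under it, and 2 turned sign with the median of probe sets, Fancm (-0.379 log2) and Map3k12 (-0.0516). For 75 of the 117 genes the call stayed under all 7. Among the other named genes, whose differences were under 2-fold, 25 values passed it, and 135 values of 77 genes turned sign while staying under it, so their direction is not settled. The cause of these shifts was not tested. The limma fits hold the time of each pair as a term, and the labels give no replicate numbers for a further block. With 1 array a side, the 24 h differences have no replicate error, and signals near the floor give bounds only.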

Other observations

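Costimulatory and plasma cell genes, not described above, differed from pair to pair. Of 8 measured costimulatory molecules and BAFF family receptors Tnfrsf13c alone was past 2-fold at 24 h. Cd40, which receives T cell help, read 1422 and 491.1 without TGF-β (DMSO and then SP600125), 2448 and 1734 at 12 h, and 2871 and 2638 at 24 h, so the difference was -1.53, -0.50 and -0.12 log2. Cd86, a ligand of CD28, read 141.5 and the floor, 391.8 and 233.4, and 407.1 and 484.9, with differences of -0.93, -0.75 and 0.25 and an unadjusted p of 0.047 for the departure at 24 h by limma. Cd274, which encodes PD-L1, read 690.8 and 1295 at 24 h, a difference of 0.91.

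Of 7 measured plasma cell genes 1 was 2-fold lower at 24 h. This was Irf4, a factor of plasma cell differentiation, which read 262.4 and 356.2, 433.3 and 139.1, and 692.2 and 289.1, lower with drug at both times of TGF-β and not without it. Ell2, an elongation factor of immunoglobulin secretion, differed by -0.03 at 24 h, and Sdc1, the plasma cell marker CD138, by -0.15. Of the chemokine receptors Ccr10 read 449.5 and 191.5 at 24 h, and Ccr7 was at the floor on the other 5 arrays and at 204.2 with drug at 24 h, at least 2.75-fold higher.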
